A study of Mus musculus with 2 samples.

Results

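The elastic fibre genes described here are 10 genes chosen by symbol from the 43346 genes in the deposited tables: Eln, Fbn1, Mfap5, Mfap4, Emilin1, Fbln5, Fbln1, Fbln2, Lox and Loxl1. All 10 were found in both libraries, with 34 annotated transcripts between them. The material was whole lung of 1 adult female C57BL/6J mouse aged 10 weeks, with no treatment or altered allele named in the labels. PolyA-selected RNA from this tissue was sequenced as technical replicates 1 and 2, each 1 library, and the labels say that replicate 2 was made later. Both libraries belong to 1 group, so no condition is compared. The comparison the design allows is how far repeat measurements of the same lung differed for these genes. With 1 library on each side no difference has a replicate check, and the date of preparation and the library cannot be told apart.

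Elastic fibres let the lung stretch and recoil. Soluble tropoelastin, the product of Eln, is deposited on a scaffold of fibrillin microfibrils, with fibulins, emilins and microfibril-associated proteins at the surface. Lysyl oxidases then join tropoelastin molecules through their lysines into insoluble elastin. Most elastin of the lung is laid down while the alveoli and vessels form, by fibroblasts, smooth muscle cells and other mesenchymal cells, and it turns over slowly in the adult.

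The Eln message has an unusual composition, and 5 stretches of coding sequence are shown to set Eln and Emilin1, nearly without counts in one library, beside partners with similar counts in both. Each is 120 bases, 5′ to 3′ on the coding strand and in frame, from GENCODE M21 transcripts on GRCm38. Capitals mark codons GGN, GCN and CCN, which encode glycine, alanine and proline. Eln high is the stretch of highest GC content in the Eln coding sequence, and the other 4 are the stretches of lowest GC content in the coding sequence of each gene. The genomic spans include introns.
Eln high, chr5:134729670-134732539, minus strand, exons 5 to 7: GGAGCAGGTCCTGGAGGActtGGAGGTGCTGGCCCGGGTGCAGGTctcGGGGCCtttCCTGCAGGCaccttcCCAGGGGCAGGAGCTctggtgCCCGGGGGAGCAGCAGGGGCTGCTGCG
Eln low, chr5:134705745-134706593, minus strand, exons 32 to 34: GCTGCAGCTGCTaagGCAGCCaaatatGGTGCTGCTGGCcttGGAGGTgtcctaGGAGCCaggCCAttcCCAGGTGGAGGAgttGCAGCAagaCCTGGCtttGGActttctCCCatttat
Emilin1 low, chr5:30920187-30920703, plus strand, exons 7 to 8: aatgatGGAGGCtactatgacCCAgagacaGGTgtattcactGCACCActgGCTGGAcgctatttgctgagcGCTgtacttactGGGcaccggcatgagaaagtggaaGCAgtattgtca
Fbln5 low, chr12:101760742-101761835, minus strand, exons 8 to 9: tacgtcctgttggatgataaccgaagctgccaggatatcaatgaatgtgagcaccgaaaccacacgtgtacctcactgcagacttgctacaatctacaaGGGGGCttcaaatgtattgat
Fbn1 low, chr2:125372401-125373914, minus strand, exons 18 to 19: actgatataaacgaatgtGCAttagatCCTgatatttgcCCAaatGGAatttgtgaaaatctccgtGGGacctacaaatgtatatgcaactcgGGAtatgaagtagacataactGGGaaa

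In Eln high 33 of 40 codons are in capitals and the GC content is 71.7%. Eln low, at 55.8% GC with 25 of 40 codons in capitals, is richer in GC than the corresponding stretches of Emilin1 (50.8%), Fbln5 (45.8%) and Fbn1 (37.5%). Across whole coding sequences GC content was highest in Loxl1 (64.6%), followed by Eln (62.6%) and Emilin1 (61.7%). Loxl1, whose stretches are not shown, had 208 counts in replicate 1. Stretches of Mfap5, with 523 counts in replicate 1 and 715 in replicate 2, are not shown either. Over the whole coding sequence, codons GGN, GCN and CCN make up 68.2% of the 861 codons of Eln. In the other 9 genes their share runs from 16.9% in Fbln1 to 29.0% in Emilin1. Cysteine codons, TGT and TGC, show the reverse: they make up 12.6% of the codons of Fbn1, 10.2% of Fbln1, 8.91% of Fbln5 and 8.76% of Fbln2, whose proteins are built of disulphide-bonded EGF-like repeats, and 0.232% of the codons of Eln.

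The libraries held 16104442 and 17110882 expected counts. TPM, the authors' length-corrected abundance, compares genes per length, and 28.0% of all genes in replicate 1 and 32.5% in replicate 2 reached 1 TPM. Ratios between libraries use expected counts scaled by the TMM method and are given with exact Clopper-Pearson 95% intervals, which cover counting error only, as does the limit of 3 counts that a count of 0 allows. Ratios were taken for the 14139 genes whose TPM averaged 1 or more. Of these, 67.5% lay over 2-fold apart, 39.3% on the side of replicate 2 and 28.2% on that of replicate 1, and 32.5% were within 2-fold, around a median log2 ratio of 0.19. The lung's defining epithelial markers were all 4 over 2-fold higher in replicate 2, with Sftpc at 287 and 39612 TPM, Scgb1a1 at 17498 and 174257 TPM and Ager at 13.7 and 2508 TPM.

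The sum over the 10 elastic fibre genes was 251 TPM for replicate 1 and 608 TPM for replicate 2, a mean of 430 ± 252 (SD, n = 2 technical replicates). This was 0.0251% and 0.0608% of all TPM. All 10 passed the filter on mean TPM. 8 of them reached 1 TPM in replicate 1 and all 10 did in replicate 2. Of the 10, 7 were over 2-fold apart, against 67.5% of all genes tested. By direction, 6 were higher in replicate 2 (background 39.3%), 1 was lower (28.2%) and 3 were within 2-fold (32.5%), and their median log2 ratio was 2.03.

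**Figure D1:**
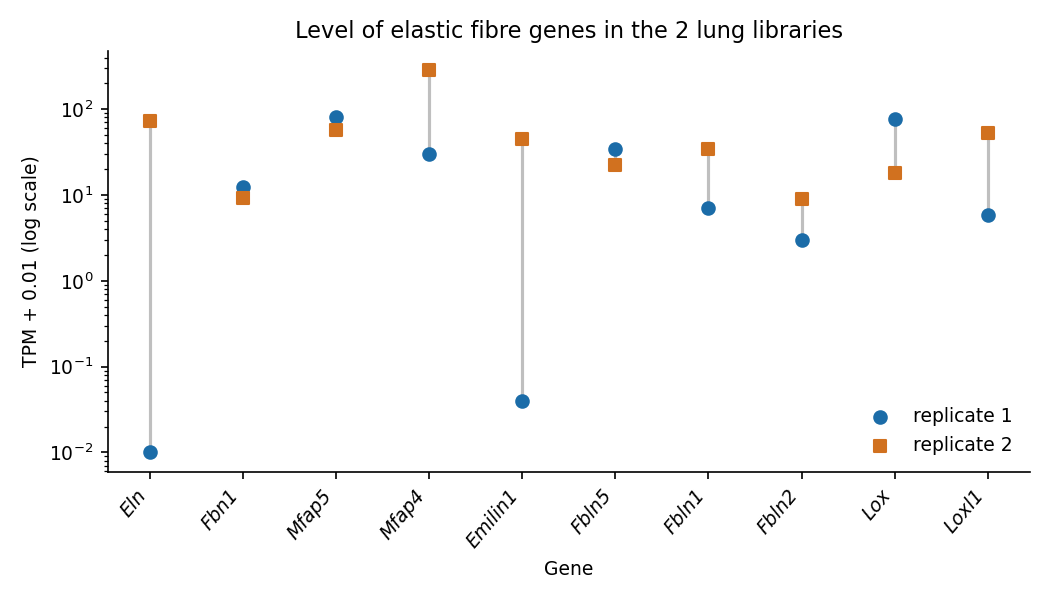
TPM plus 0.01 on a log axis for each elastic fibre gene in technical replicate 1 (circles) and technical replicate 2 (squares), with a line joining the 2 libraries of a gene. Eln and Emilin1 lie at 0 and 0.03 TPM in replicate 1 and at 73.7 and 44.8 TPM in replicate 2, while the pairs of points for Fbn1, Mfap5 and Fbln5 lie close together.

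Eln, which encodes tropoelastin and lies at chr5:134702593-134747323 on the minus strand (GRCm38, GENCODE M21), had 0 counts in replicate 1 and 2791 in replicate 2. Its level was 0 and 73.7 TPM, and the authors' bounds on the posterior mean, whose level is not stated in the file, were 0 to 0.102 and 67.1 to 72.3 TPM. Against the 3 counts that a count of 0 allows, Eln was 730-fold higher in replicate 2. The exact interval starts lower, at 593-fold, and has no upper limit. It was the lowest of the 10 genes in one library and ranked next to the top in the other. The counts of 0 in replicate 1 and of 2791 in replicate 2 came from a single annotated transcript. Among all genes tested, 2.52% had 0 or 1 count in replicate 1 and at least 100 in replicate 2. Eln and Emilin1 are the 2 elastic fibre genes with that pattern.

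The Eln transcript in the deposited tables is 2583 bases long, which equals the coding length of the same transcript in GENCODE M21. The GENCODE M21 transcript is 3853 bases long, with a 3′ untranslated region of 1188 bases at 50.6% GC, against 62.6% in the coding sequence. Of the other 9 genes, none of the protein-coding transcripts with the most counts had a deposited length equal to its coding length. Whether the shorter Eln model bears on the count of 0 was not tested.

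The 3 microfibril genes behaved unlike each other. Fbn1 encodes fibrillin-1, the main building block of microfibrils, and lies at chr2:125300594-125507993 on the minus strand. It had 1345 counts in replicate 1 and 1383 in replicate 2, or 12.4 and 9.10 TPM, and was 1.24-fold higher in replicate 1 (1.15 to 1.34). Mfap5, at chr6:122505845-122529290 on the plus strand, encodes MAGP-2, a small glycoprotein of microfibrils. It had 523 and 715 counts and 81.1 and 56.8 TPM, and the ratio of scaled counts was 1.07 (0.957 to 1.20), an interval that includes 1. The authors' bounds on its posterior mean TPM, 68.5 to 83.7 and 48.7 to 60.9, were nevertheless apart.

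Mfap4, at chr11:61485431-61488900 on the plus strand, encodes a fibrinogen-related glycoprotein that binds elastin and microfibrils. It had 519 and 6890 counts and 30.1 and 287 TPM, so it was 10.4-fold higher in replicate 2 (9.53 to 11.4). The balance among the 3 genes was not the same in both libraries. Mfap5 stood at 6.51 times the TPM of Fbn1 in replicate 1 and 6.24 times in replicate 2, whereas Mfap4 stood at 2.42 and 31.5 times. Mapk7 overlaps Mfap4 on the opposite strand and had 6 and 411 counts. Whether the authors' counting used strand is not stated in the sources used here, so reads of the overlapping bases of these genes cannot be told apart. Gm9913, which overlaps Fbn1 on the opposite strand, had 2 and 1 counts. Antisense genes of GENCODE M21 also overlap Eln (Gm30003) and Lox (AC161119.1) on the opposite strand, and counts for them are not given here. The same limit on strand holds for these pairs.

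Emilin1 encodes an elastin-microfibril interface protein, named for its place between the elastin core and the microfibrils, and lies at chr5:30913402-30921277 on the plus strand. It had 1 count in replicate 1 and 1443 in replicate 2, or 0.03 and 44.8 TPM. The ratio of scaled counts was 1132, with an interval of 203 to 44758 that the single count makes wide. On the posterior mean TPM, 0.40 and 42.4, the ratio was 106, below that interval. The authors' bounds were 0.0547 to 0.86 TPM in replicate 1 and 37.7 to 47.0 TPM in replicate 2.

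The sum over 3 fibulins was 44.5 and then 66.2 TPM, but the genes did not keep their order. Fbln5, at chr12:101746565-101819055 on the minus strand, encodes fibulin-5, which binds tropoelastin and is needed for elastic fibre assembly. It had 2174 and 2011 counts and 34.4 and 22.6 TPM, and was 1.38-fold higher in replicate 1 (1.30 to 1.46). Fbln1, at chr15:85205949-85286535 on the plus strand, encodes fibulin-1, found within the elastin core and in basement membranes. It had 277 and 1540 counts and 7.12 and 34.8 TPM, and was 4.36-fold higher in replicate 2 (3.84 to 4.98). Fbln5 stood at 4.84 times the TPM of Fbln1 in replicate 1, and Fbln1 stood at 1.54 times the TPM of Fbln5 in replicate 2.

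Fbln2, at chr6:91212455-91272540 on the plus strand, encodes fibulin-2, a protein of vessel walls and basement membranes. It had 74 and 365 counts and 2.96 and 8.91 TPM, and was 3.87-fold higher in replicate 2 (3.01 to 5.04). The authors' bounds on its posterior mean TPM, 2.84 to 8.54 and 8.09 to 13.0, overlap between the libraries. On that measure the log2 ratio was 0.97, just within 2-fold. The bounds of the other 9 genes did not overlap between the libraries, also where the fold was small, as for Fbn1 (11.0 to 12.2 and 8.18 to 9.11 TPM).

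The lysyl oxidases went in opposite directions. Lox, at chr18:52516067-52529867 on the minus strand, encodes lysyl oxidase, which cross-links both collagen and elastin. It had 3708 counts in replicate 1 and 1191 in replicate 2, or 77.4 and 18.0 TPM, and was 3.97-fold higher in replicate 1 (3.72 to 4.24). Loxl1, at chr9:58287738-58313186 on the minus strand, encodes lysyl oxidase-like 1, which acts in elastic fibre assembly and upkeep. It had 208 and 2610 counts and 5.89 and 52.4 TPM, and was 9.85-fold higher in replicate 2 (8.55 to 11.4).

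The sum of both lysyl oxidases moved little, from 83.2 to 70.5 TPM, while its makeup turned over. Lox stood at 13.1 times the TPM of Loxl1 in replicate 1, and Loxl1 stood at 2.91 times the TPM of Lox in replicate 2. Lox was the only elastic fibre gene over 2-fold lower in replicate 2.

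**Figure D2:**
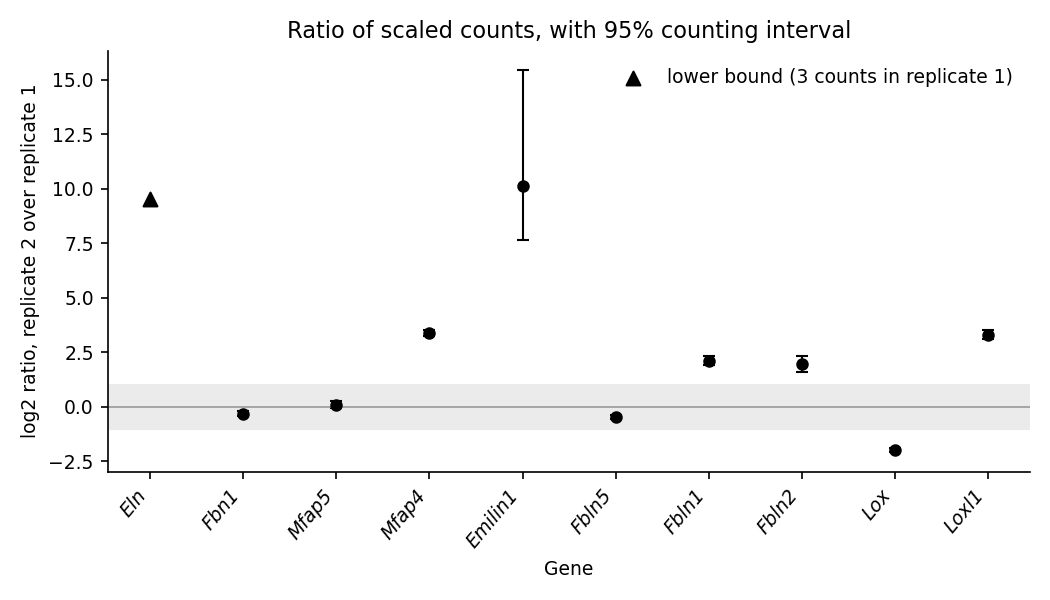
Log2 ratio of TMM-scaled counts, replicate 2 over replicate 1, for each elastic fibre gene, without a prior count. Bars are exact 95% intervals of counting error, the triangle for Eln is its ratio at 3 counts in replicate 1, and the grey band marks 2-fold. Fbn1, Mfap5 and Fbln5 lie in the band, Lox lies below it and the other 6 lie above it.

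The order of levels therefore depended on the library. In replicate 1 it ran from Mfap5 and Lox through Fbln5, Mfap4, Fbn1, Fbln1, Loxl1 and Fbln2 to Emilin1 and Eln. The authors' bounds, which are on the posterior mean TPM and not on the TPM ordered here, overlapped for 5 of the 9 pairs of neighbours. These were Mfap5 and Lox, Fbln5 and Mfap4, Fbln1 and Loxl1, Loxl1 and Fbln2, and Emilin1 and Eln. In replicate 2 the order was Mfap4, Eln, Mfap5, Loxl1, Emilin1, Fbln1, Fbln5, Lox, Fbn1 and Fbln2, with overlap for 2 of 9 pairs, Mfap5 with Loxl1 and Fbn1 with Fbln2. On the posterior mean TPM of replicate 2, Fbln2 (10.4) stood above Fbn1 (8.65). Mfap5 and Lox held 32.3% and 30.8% of the TPM of the 10 genes in replicate 1, and 9.33% and 2.96% in replicate 2. Mfap4 held 12.0% and 47.2% of that sum, and Eln 0 and 12.1%.

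GC content, taken as the mean over a gene's transcripts, moved with these ratios. The 5 elastic fibre genes of lower GC content, at 43.3% (Lox) to 55.7% (Fbln1), had log2 ratios from -1.99 to 2.12 with a median of -0.31. The 5 of higher GC content, at 56.1% (Mfap4) to 61.0% (Loxl1), had ratios of 1.94 or more, with a median of 3.38. All 5 were thus over 2-fold higher in replicate 2, near the background at that composition. Of the 2687 genes tested above the border between these sets, 90.2% were over 2-fold higher. Below it 27.4% of 11380 genes were higher and 34.4% lower. The part of GC content in these differences was not tested.

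**Figure D3:**
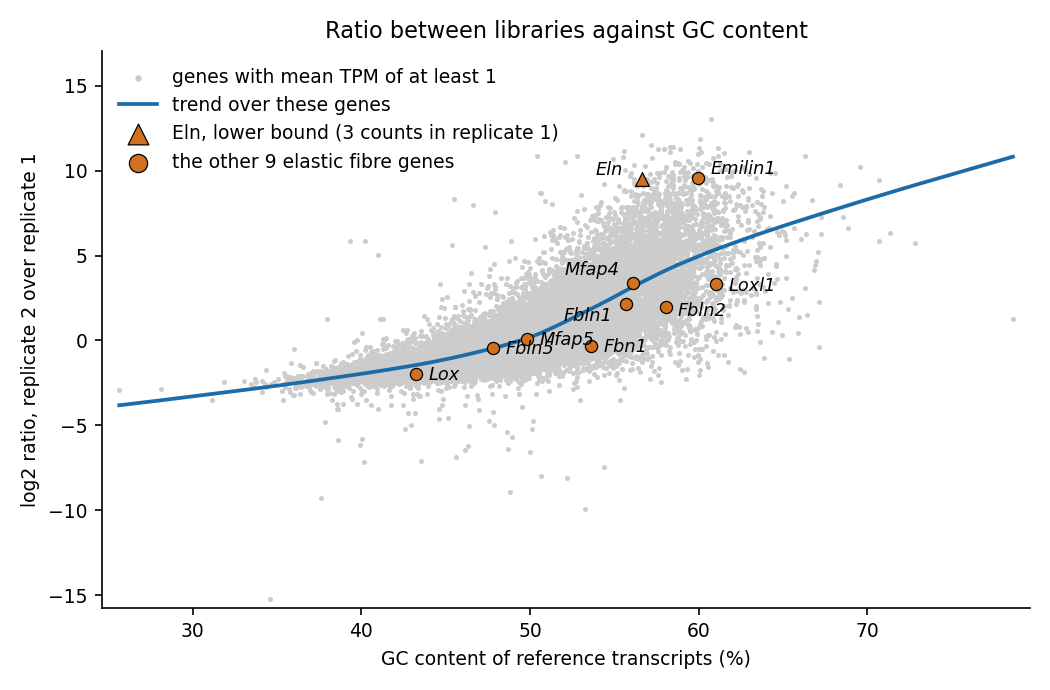
Log2 ratio of scaled counts, replicate 2 over replicate 1, against the mean GC content of a gene's reference transcripts in percent, for all genes averaging 1 TPM or more (grey) and the elastic fibre genes (orange), with a lowess trend (blue). The triangle puts Eln at its ratio with 3 counts in replicate 1. Mfap4, Mfap5, Fbln5 and Lox lie near the trend, Eln and Emilin1 above it, and Fbn1, Fbln2 and Loxl1 below it.

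Set against the trend at the mean GC content of their transcripts, the 10 genes fell on both sides. Mfap4 (0.21 above the trend on the log2 scale), Fbln5 (-0.01) and Mfap5 (-0.03) lay on it, and Lox (-0.54) and Fbln1 (-0.82) lay within 2-fold of it. Fbn1 (-2.16), Fbln2 (-2.17) and Loxl1 (-2.06) lay over 2-fold below, where 20.5% of all genes lay, and Emilin1 (4.62) and Eln lay over 2-fold above, where 22.6% lay. Of the 1568 genes within 1 point of the GC content of Fbn1, 88.5% had a larger ratio than Fbn1, and their median log2 ratio was 1.89. These places depend on the GC content used. At that of the protein-coding transcript with the most counts, the trend was 2.02 for Mfap4, whose log2 ratio of 3.38 lay over 2-fold above it. No other of the 10 genes crossed 2-fold. The trend there was -0.80 for Mfap5, beside a ratio of 0.10, and 0.72 for Fbn1, beside -0.31.

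For Eln, with every count of 0 set to 3, 4 of the 1371 genes within 1 point of its GC content of 56.6% had a larger log2 ratio than its 9.51, and the median of these genes, with the prior count, was 3.60. That GC content is the mean over GENCODE M21 transcripts. The coding-only model that was counted has 62.6% GC, where the trend was 5.92, against 3.43 at 56.6%. The place of Eln among genes near 62.6% was not computed. For Emilin1, 4.46% of its 560 neighbours in GC content had a larger ratio, around a median of 4.84. For Loxl1 the median of 348 neighbours was 5.56, above its own log2 ratio of 3.30.

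The mean over a gene's transcripts hides large differences along them. Lox has a coding sequence of 59.4% GC, close to that of Fbln2 at 58.3%, but also a 3′ untranslated region of 3158 bases at 35.6% GC. In its protein-coding transcript with the most counts, the window of 180 bases of lowest GC content has 21.1%. In the transcripts of the other genes chosen that way, the lowest window has 29.4% GC in Fbln5 and 30.6% in Fbn1, followed by Fbln1 (34.4%), Fbln2 (35.0%), Mfap5 (35.6%), Mfap4 (37.8%), Loxl1 (46.7%) and Emilin1 (53.3%). In the coding-only model of Eln the lowest window has 57.2%. The transcripts of highest TPM are others in Fbln2, where the lowest window has 45.0%, and in Mfap5, where it has 42.2% for the leading transcript of either library. For all genes tested the lowest window was taken in the longest GENCODE M21 transcript of a gene. It had a median of 31.7%, with a 90th percentile of 46.1%. On that measure Eln has 27.8%, so the 57.2% of its coding-only model cannot be set against these values. Windows of other transcripts above need not be on that measure either. The lowest window of the counted models was computed after the ratios were seen.

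Transcript estimates added another difference. Eln, Fbln5 and Loxl1 have 1 transcript each in the deposited tables and the other 7 have several. The transcript of highest share changed in 2 of these 7 genes, Mfap5 and Emilin1, against 34.1% of the 9700 genes with several transcripts over the whole table. For Emilin1 the share in replicate 1 rests on 1 read.

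In Mfap5 a transcript of 579 bases held 77.4% of the gene's TPM in replicate 1 and 0% in replicate 2, with authors' bounds of 49.3 to 65.3 and 0 to 1.07 TPM. A transcript of 748 bases went from 0 to 43.0%, with bounds of 0 to 1.98 and 17.4 to 27.8 TPM. The transcript of 1506 bases went from 14.6% to 30.4%, that of 946 bases from 7.23% to 14.7%, and that of 425 bases from 0 to 11.3%. The count ratio of Mfap5, which is not corrected for length, thus stands beside a different division among its transcripts. Of the transcripts named, only that of 1506 bases has bases absent from the others, 524 in all. The rest have 0 such bases, so their shares rest on how the estimates divided reads of shared bases.

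In Fbln1 all counts of replicate 1 went to the transcript of 3659 bases, and in replicate 2 that transcript held 51.8%. The rest, 48.2% or 552 counts, went to a transcript of 2273 bases, with bounds of 0 to 0.129 and 14.2 to 17.5 TPM. Fibulin-1 is known for splice forms with different ends. In Lox the shift in shares was smaller, with the transcript of 4468 bases at 100% and 88.8% and one of 3604 bases at 0 and 11.2%. These Lox transcripts have coding sequences of equal length, 1236 bases.

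In Fbln2 a transcript of 1612 bases annotated as a retained intron held 74.6% and 60.6% of the gene's TPM. On the posterior mean it held 38.5% and 49.2%, so the direction between the libraries turned. The transcripts of 4786 bases held 25.4% and 22.6%, and that of 4644 bases held 0 and 15.3%. In Emilin1 in replicate 2, the transcript of 3853 bases held 49.3% of the TPM with 88.6% of the counts, and one of 601 bases held 48.9% of the TPM with 10.0% of the counts. The main transcript held 100% and 94.0% of Mfap4 and 100% and 99.3% of Fbn1.

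**Figure D4:**
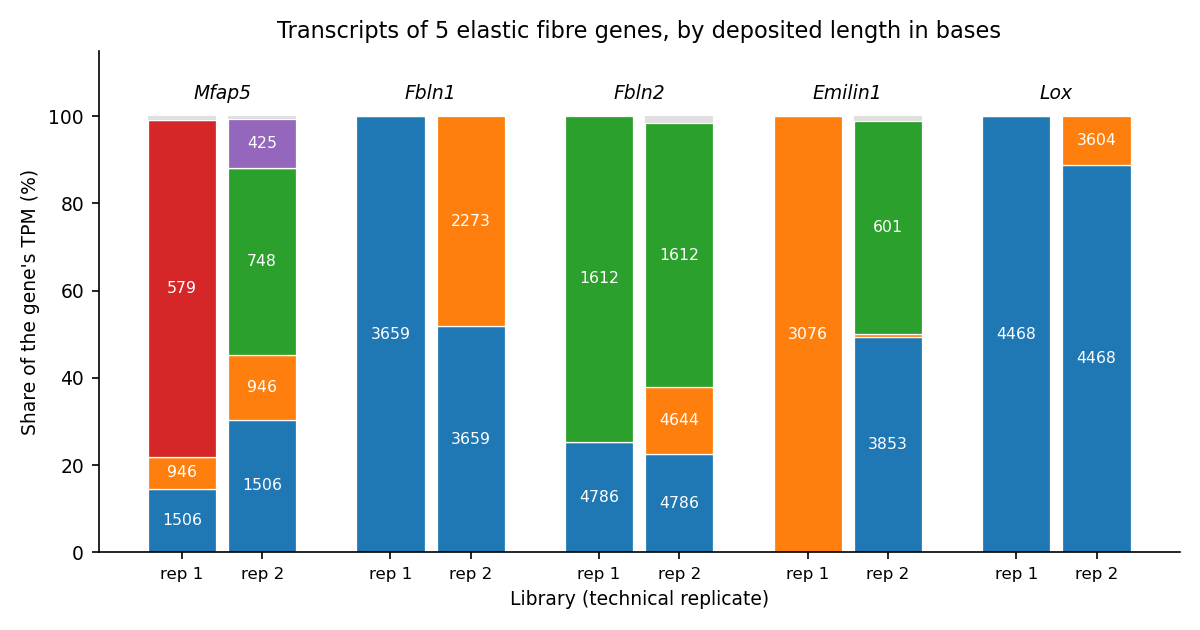
Share of each gene's TPM, in percent, held by its transcripts in replicates 1 and 2 for Mfap5, Fbln1, Fbln2, Emilin1 and Lox. Numbers in the bars are deposited transcript lengths in bases and grey is the remainder. The 579-base transcript of Mfap5 fills most of replicate 1 and is missing from replicate 2, and the single bar of Emilin1 in replicate 1 rests on 1 count.

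A list of 33 other genes of elastic fibre biology had 28 that averaged 1 TPM or more. Of these, 17 were over 2-fold higher in replicate 2, 6 were lower and 5 were within 2-fold, with a median log2 ratio of 2.31, against 39.3%, 28.2% and 32.5% of all genes. Fbn2, Fbln7, Emilin3, Loxl4 and Elane were below that level. Fbn2, the fibrillin gene best known from developing tissue, had 0.07 and 0.01 TPM.

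Among 10 further microfibril genes 8 were higher in replicate 2, 1 was lower and 1 was within 2-fold, with a median log2 ratio of 3.56. Ltbp4, which encodes a TGF-β-binding protein needed for elastic fibre assembly in lung, had 3 and 8452 counts, or 0.5 and 184 TPM, a ratio of 2211 (756 to 10723). Its ratio was 369 on TPM and 152 on the posterior mean TPM, with a deposited mean length of 711 bases in replicate 1 and 3089 in replicate 2. Mfap2, which encodes MAGP-1 and is a relative of Mfap5, had 2 and 939 counts, a ratio of 368 (102 to 3047), or 122 on TPM and 71.7 on the posterior mean. Adamtsl2, which encodes a secreted microfibril-binding protein, had 10 and 1349 counts, a ratio of 106 (57.4 to 221), or 197 on TPM and 39.5 on the posterior mean. Ltbp1, which tethers latent TGF-β to microfibrils, had 48.0 and 17.3 TPM and was 2.01-fold lower in replicate 2 (1.87 to 2.17). Scaling by total counts left Ltbp1 and Timp3 within 2-fold.

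Relatives of fibulins and emilins had 2 higher, 3 lower and 1 within 2-fold of 6 tested, with a median log2 ratio of -0.55. Efemp1, which encodes fibulin-3, had 610 and 112 TPM and was 3.23-fold lower in replicate 2 (3.09 to 3.39), or 5.45-fold on TPM. In replicate 1 it stood above every one of the 10 elastic fibre genes. Efemp2, chosen here after its values were seen, encodes fibulin-4, which recruits lysyl oxidase to tropoelastin, and had 4 and 836 counts, a ratio of 164 that was 28.2 on TPM and 9.50 on the posterior mean. For the cross-linking genes and their supply, 3 of 5 were higher in replicate 2 and 2 were within 2-fold, with a median log2 ratio of 2.37.

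Of 7 elastin-degrading proteases and inhibitors tested, 4 were higher, 2 lower and 1 within 2-fold. Cst3, which encodes the cysteine protease inhibitor cystatin C, had 42.6 and 1518 TPM and was 39.8-fold higher in replicate 2 (35.6 to 44.5). Ctss, which encodes the elastin-degrading cathepsin S and is inhibited by cystatin C, had 548 and 258 TPM and was 1.92-fold higher in replicate 1 (1.85 to 2.00), or 2.12-fold on TPM. Timp3, a metalloprotease inhibitor bound to the matrix, had 457 and 175 TPM and was 2.36-fold higher in replicate 1 (2.31 to 2.41).

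The same division by GC content appeared in this list. All 11 of its genes at 56.2% GC or more were over 2-fold higher in replicate 2, with a median log2 ratio of 4.50. Of all 2687 genes tested above the border in GC content, 90.2% were higher, so the count is near the background at that composition. Of the 17 at or below 55.4%, 6 were higher, 6 lower and 5 within 2-fold, with a median of 0.07, where 27.4% of all genes were higher and 34.4% lower. The border was set at the middle of the GC content of the 10 elastic fibre genes, and the part of GC content was not tested here either.

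**Figure D5:**
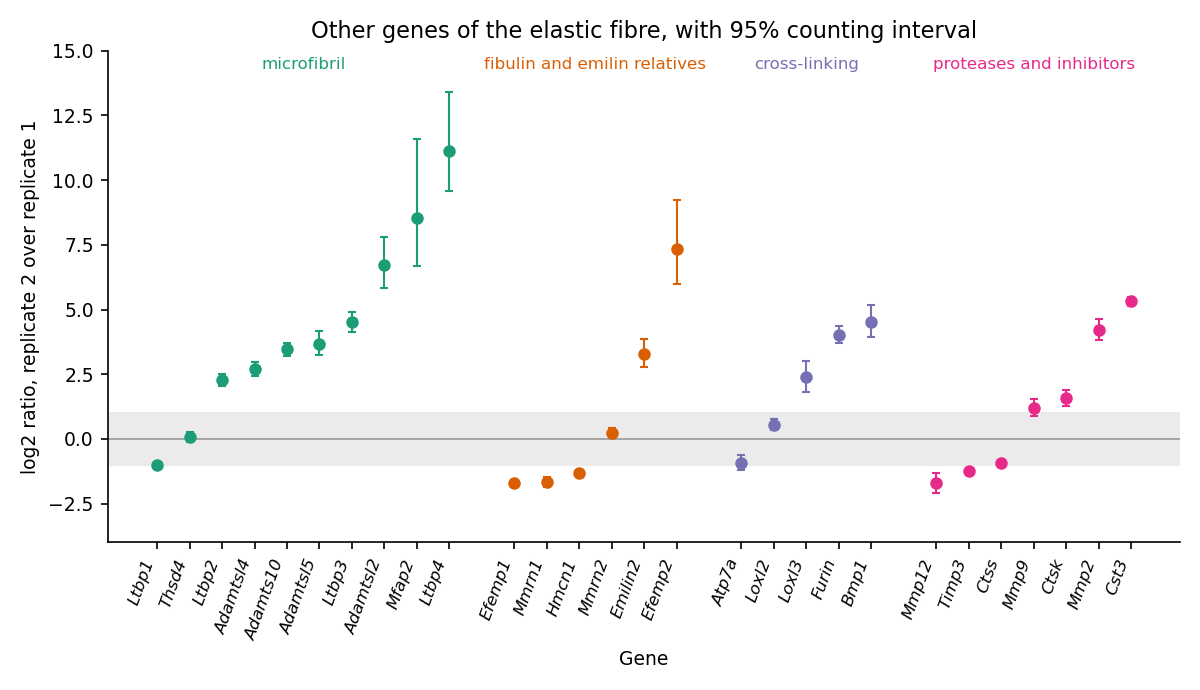
Log2 ratio of TMM-scaled counts, replicate 2 over replicate 1, for 28 other genes of elastic fibre biology in 4 groups, each ordered by ratio. Bars are exact 95% intervals of counting error and the grey band marks 2-fold. Microfibril genes run from Ltbp1 at 2.01-fold lower to Ltbp4 at 2211-fold higher in counts, which is 369-fold on TPM.

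Markers of smooth muscle, fibroblasts and other cell types of the lung differed between the libraries too, not all in the same direction. Each count below stands against 39.3% of all genes higher in replicate 2 and 28.2% lower. All 6 smooth muscle markers were over 2-fold higher in replicate 2, summing to 90.2 and 830 TPM, with Acta2 at 37.0 and 335 TPM, Tagln at 37.4 and 329 TPM and Myh11 at 5.56 and 21.9 TPM. All 5 pericyte markers were higher, summing to 10.2 and 187 TPM. Of 8 fibroblast markers 2 were higher, 3 lower and 3 within 2-fold, summing to 1190 and 751 TPM, with Col1a1 at 21.3 and 39.2 TPM, Col3a1 at 174 and 112 TPM and Dcn at 557 and 203 TPM. Of 5 mesothelial markers 3 were higher and 2 lower, with sums of 198 and 272 TPM. All 4 cardiac muscle markers were higher, with sums of 95.03 and 981.8 TPM. None of 4 cartilage markers reached a mean of 1 TPM, and Acan, Col2a1 and Comp had 0 counts in replicate 1. In bulk tissue fewer cells of a type and less RNA per cell cannot be told apart. As the libraries are technical replicates of 1 lung, a difference in their preparation cannot be told apart from either. The part of cell makeup in the ratios of the elastic fibre genes was not tested. The shares of all genes set beside these counts were not matched to the GC content of the markers. The part of GC content in the marker ratios was not tested.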

How the data were processed

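Both libraries come from the lung of 1 mouse. Per the deposited file descriptions, transcripts of assembly mm10 and annotation M4 were quantified from transcriptome alignments. Which aligner and quantifier made the tables is not given in the sources used here. The expected counts (estimated counts of reads per gene or transcript), TPM and FPKM are the authors' values per the file headers, and so is the percent of a gene's abundance that each transcript holds. FPKM was not used for a result. The 26345 rows that name no gene held 0% of the expected counts and were left out.

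Expected counts were rounded to whole numbers and scaled with TMM in edgeR 4.0.16 (R 4.3.3), with factors of 0.913 and 1.095 (1.10 when rounded further), and log2 ratios used a prior of 0.5 counts. Such ratios do not correct for transcript length, so their sign can differ from that of a TPM ratio. Genes averaging 1 TPM or more entered the ratios. No p-value was computed because each side is 1 library. An interval is the exact Clopper-Pearson interval of a gene's share of both libraries' counts, without the prior. The 3-count limit of a 0 is 0.186 and 0.175 CPM. A lowess fit (span 0.3) gave the GC trend. GC content and positions came from GENCODE M21, which matched 42462 of 43346 genes. Alternatives were DESeq2 1.42.0 size factors, total counts, TPM and posterior mean TPM ratios, other filters, zeros set to 3 counts, and subtraction of the GC trend. Python 3.11.15 was used with statsmodels 0.14.6 for lowess, scipy 1.17.1 for intervals, pandas 2.3.3, matplotlib 3.10.9 and numpy 2.4.6, and the ratio was tested on simulated data.

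The elastic fibre genes and all lists were chosen with earlier results of these data known. Named among the other genes are the 8 of highest mean TPM and any at 0 in one library with at least 100 counts in the other, of which there were 0. Named transcripts held at least 10% of their gene in either library. Whether 1 RNA extraction served both libraries is not given in the labels.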

Additional observations from a re-analysis of the deposited data

How the results depend on the processing

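Subtracting the GC trend left 2 elastic fibre genes on the higher side of 2-fold and 3 on the lower, 9 of the other genes on the higher and 9 on the lower, and 6060 genes over 2-fold apart in place of 9543. This setting also turned the log2 ratios of Fbln1 (-0.82), Fbln2 (-2.17) and Loxl1 (-2.06), since each lay below the trend. A minimum mean TPM of 10 left 3 of the other genes lower and 5250 genes apart, and no filter gave 14364 apart, from testing fewer and more genes. Total counts left 4 of the other genes lower, without Ltbp1 and Timp3. On TPM, Hmcn1 was 1.19-fold higher in replicate 2 and Mmp9 1.14-fold higher in replicate 1, each against its count ratio. For Fbln2 the posterior mean TPM gave a log2 ratio of 0.97, and the cause was not tested. Mfap5 changed sign with TPM (-0.51) and with posterior mean TPM (-0.48), within 2-fold each time. Without replicate 1 the summed TPM of the 10 genes is 608, and without replicate 2 it is 251. No paired analysis was possible because there is 1 group. Between scalings the median log2 ratio of all genes ran from 0.01 (TPM) to 0.45 (total counts). Apart from the GC trend and the Fbln2 value, no alternative moved an elastic fibre gene across 2-fold. The count of 0 for Eln and of 1 for Emilin1 limits both ratios to a bound or a wide interval.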
